A study of Homo sapiens with 5 samples.

Results

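The 40 genes described here encode proteins of DNA replication and mitosis. They were chosen by name, and every one of them was found among the 19775 genes of the array that could be named from a probe set assigned to 1 gene alone. They were read by 90 probe sets, 12 genes by 1 probe set and 28 by several (at most 5), and each gene was summarised by its brightest probe set, taken as the mean across the arrays. The arrays came from MIAPaCa2, a poorly differentiated pancreatic ductal adenocarcinoma (PDAC) cell line, long established, in which the α2 integrin subunit of a collagen receptor is missing. Each of 5 stably transfected populations gave 1 array. MP2-mock cells were mock-transfected and kept under drug selection, the agent being unnamed in the labels and methods. Full-length α2 was expressed in MP2-α2/TC cells, kept in standard culture, and in MP2-α2/CI cells, kept on collagenI. An α2 lacking the cytoplasmic domain was expressed in MP2-α2Δ cells, also kept on collagenI, and MP2-α9α2 cells carried a chimera of the α9 extracellular and transmembrane domains with the α2 cytoplasmic domain and were grown on the tenascin FNIII fragment. Coating was at 25 μg/mL for collagenI and 10 μg/mL for tenascin. The α2 construct was driven by a cytomegalovirus promoter, α2 and α2Δ cells were selected with zeocin, and α9α2 cells were kept in G418. The full-length populations shared construct and drug and were kept on different substrates. The paper also reports more α2, on the surface and in total, and more surface β1 in MP2-α2/CI than in MP2-α2/TC cells. The parts of substrate and integrin level cannot be told apart here. MP2-α2Δ and MP2-α9α2 cells differed in construct, substrate and drug at once, and the parts of these cannot be told apart. Cells were kept subconfluent until harvest, and both full-length populations came from a single panning.

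A dividing cell loads the MCM helicase onto origins in G1, fires it in S phase with the help of cyclin-dependent kinases, and then builds a spindle that segregates the copied chromosomes. Transcripts of the replication factors peak around the G1/S boundary, where E2F factors act, and transcripts of the mitotic proteins peak in G2 and M, where the MuvB complex, B-MYB and FOXM1 act through CHR elements with CCAAT boxes nearby. Because the products accumulate only in cycling cells, these transcripts are commonly read as a proliferation signature of tumor cells, in PDAC as elsewhere.

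The promoters of the members carry the letters of these elements, and they are shown here for the 4 genes that differed at least 2-fold between the 2 mutant constructs and for E2F1, which differed most from MP2-mock cells on the MP2-α2/CI array. Each run is the 250 bases before the RefSeq start site, 5′ to 3′ on the strand of the gene, in build GRCh38.p14. Capitals mark matches on either strand to an E2F site (TTTCCCGC, TTTGGCGC, TTTCGCGC or TTTGCCGC), a CHR (TTTGAA or TTCGAA) or a CCAAT box (CCAAT).
GINS2 (chr16:85688955-85689204, - strand): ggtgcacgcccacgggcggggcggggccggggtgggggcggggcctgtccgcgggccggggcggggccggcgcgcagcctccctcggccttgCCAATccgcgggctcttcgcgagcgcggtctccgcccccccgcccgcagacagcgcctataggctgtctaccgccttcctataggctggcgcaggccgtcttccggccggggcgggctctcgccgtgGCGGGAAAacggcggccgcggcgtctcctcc
CENPA (chr2:26785806-26786055, + strand): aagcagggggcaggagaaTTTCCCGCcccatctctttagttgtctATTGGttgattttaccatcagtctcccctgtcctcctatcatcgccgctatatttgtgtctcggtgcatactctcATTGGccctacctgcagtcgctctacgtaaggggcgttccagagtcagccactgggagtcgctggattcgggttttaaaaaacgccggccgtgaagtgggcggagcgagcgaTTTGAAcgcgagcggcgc
AURKB (chr17:8210226-8210475, - strand): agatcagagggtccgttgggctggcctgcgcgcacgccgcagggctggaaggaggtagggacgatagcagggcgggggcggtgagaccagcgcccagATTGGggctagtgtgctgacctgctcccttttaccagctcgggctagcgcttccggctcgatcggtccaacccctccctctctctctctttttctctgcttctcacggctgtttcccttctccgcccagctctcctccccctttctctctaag
CDC20 (chr1:43358731-43358980, + strand): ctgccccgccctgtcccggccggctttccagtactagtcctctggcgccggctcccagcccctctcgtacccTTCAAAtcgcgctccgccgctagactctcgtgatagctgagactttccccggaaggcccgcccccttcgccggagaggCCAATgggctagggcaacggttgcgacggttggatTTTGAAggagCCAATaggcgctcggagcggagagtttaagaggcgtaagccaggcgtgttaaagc
E2F1 (chr20:33686386-33686635, - strand): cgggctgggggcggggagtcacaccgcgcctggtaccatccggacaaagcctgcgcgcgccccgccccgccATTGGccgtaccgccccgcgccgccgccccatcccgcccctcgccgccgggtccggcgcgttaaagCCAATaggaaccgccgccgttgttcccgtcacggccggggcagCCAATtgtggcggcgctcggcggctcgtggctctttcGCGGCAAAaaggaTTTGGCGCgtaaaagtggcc
GINS2, part of the replicative helicase, and E2F1, itself a G1/S factor, hold E2F sites near the start, the first base lying at -31 in GINS2 and at -33 and -20 in E2F1. CDC20, the activator of the anaphase-promoting complex, and CENPA, the histone of the centromere, hold a CHR upstream. AURKB, the kinase of the chromosomal passenger complex, holds a CCAAT box and no match to the other letters in its window.

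RefSeq promoters, from 250 bases before to 50 after the first listed start, were found for 32 of the 40 members. An E2F site was matched in 14 of the 32 (43.8%), against 3.33% of 27305 promoters in the table. A CHR was matched in 13 (40.6%, against 16.6%) and a CCAAT box in 24 (75.0%, against 35.7%). All 7 licensing and helicase genes with a promoter held an E2F site, and none of the 6 spindle and checkpoint genes did. Of 13 genes with a CHR, 12 also held a CCAAT box. Overlaps of matches occurred 3 times within a motif and 2 times between motifs, in MCM7 and MKI67. A match describes letters in a window and not a bound factor.

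**Figure D1:**
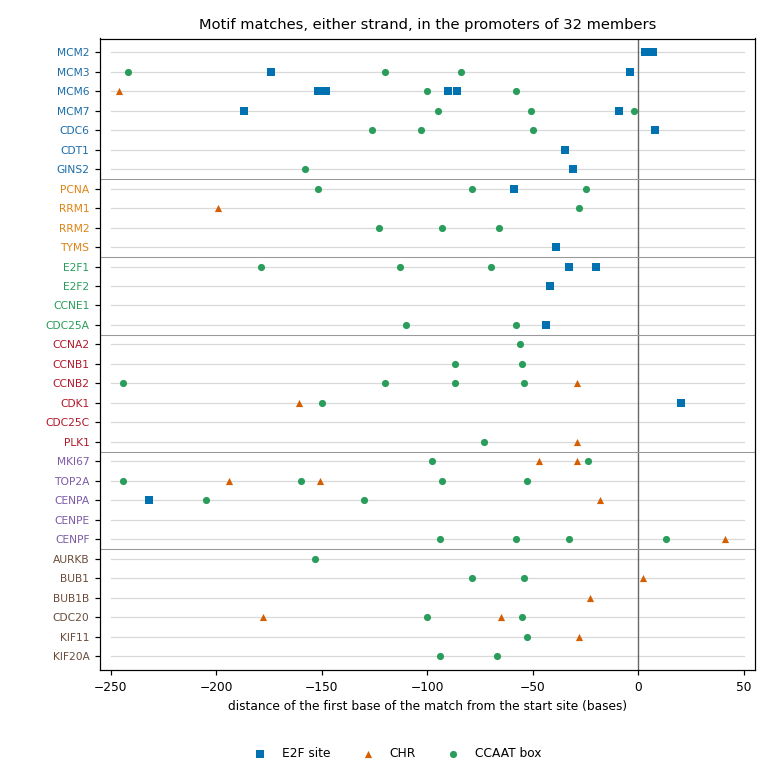
Positions of motif matches (x axis, bases from the start site) in the promoters of 32 members (y axis, names coloured by role group), with 1 symbol per match on either strand for E2F sites, CHR and CCAAT boxes. Blue E2F squares are in 7 of 7 licensing and helicase promoters, whereas CHR triangles are mostly in the G2/M, chromosome and spindle groups below.

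The deposited values were taken as log2. Their minimum was 2.21 on the MP2-α2Δ and MP2-α9α2 arrays (the second set) and 2.24 on the remaining 3 (the first set), and the sets were treated as normalized apart. Over probe sets above background on all 5 arrays, the median was 6.88 to 6.89 in the first set and 7.69 to 7.72 in the second. Background (the floor) was set from 107 probe sets for odorant receptors, at their 95th percentile on each array (2.21 to 2.27), and 12315 to 12845 genes were above it. With 1 array per population no difference has an error, a p-value or a replicate check. Every ITGA2 and ITGA9 probe set was at the array minimum outside MP2-α2Δ cells, where both ITGA2 probe sets read above it (7.28 and 3.28). The study states that its array analysis found no α2 expression in any cells. It describes the α2 transgene as lacking the sequence these ITGA2 probes read, so an ITGA2 value at the minimum does not check a label. If the first statement covers MP2-α2Δ cells, the readings above the minimum there differ from it. The source of the ITGA2 reading in MP2-α2Δ cells was not tested. Nothing is stated of the ITGA9 probes, which were at the minimum also in MP2-α9α2 cells. KRT8 and KRT18, the keratins of simple epithelia, read 14.18 to 15.22 in the first set and 14.44 to 15.04 in the second, while EPCAM and CDH1, defining epithelial markers, were at or below the floor on every array except for CDH1 in MP2-α2/TC cells (2.26 against a floor of 2.25). The summed signal of 5 epithelial markers was 15.79 to 16.04 on the log2 scale. Of 6 fibroblast markers 2 were above the floor in the first set and 3 in the second, COL1A1 and COL1A2 among them, with a summed signal of 12.03 to 12.23 and 12.50 to 13.13. Of 4 blood markers 1 was above it (CD14, at 2.91 to 3.38), the log2 of their summed signal being 4.42 to 4.62. None of 3 acinar and endocrine markers was above it, and the log2 of their sum was 3.79 to 3.82. The part of these in the differences was not tested.

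All 40 members were well above background on every array, the lowest value being 6.95 (E2F1 in MP2-α9α2 cells), which is 4.75 log2 units over the floor. No member was therefore lost to a filter on low values, and none of the differences below is a bound. Values are those of the summary probe set unless another is named, and are compared only between arrays. Statements on which array was higher hold for that probe set.

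**Figure D2:**
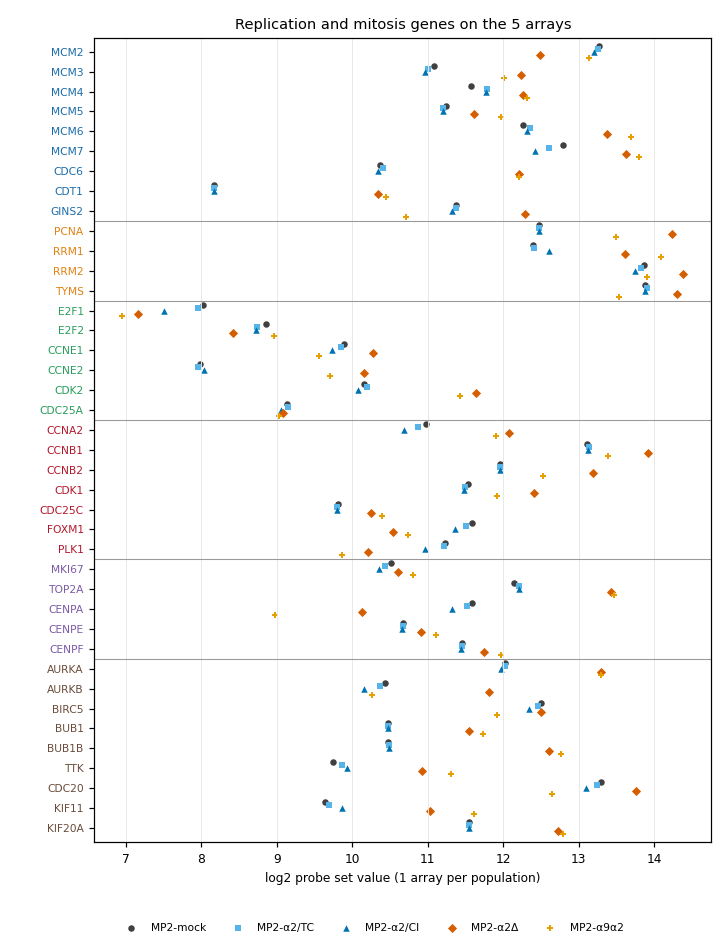
Log2 values of the 40 members (x axis; y axis, genes coloured by role group), 1 symbol per array and population. Symbols of the first set (MP2-mock and both full-length α2 arrays) lie within 1.1-fold of each other for 24 genes, and those of the second set mostly lie apart from them.

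With α2 in standard culture the replication and mitosis genes lay close to their MP2-mock values. None of the 40 reached a 2-fold difference on the MP2-α2/TC array, where 0.292% of 12682 genes did so upward and 0.378% downward. Differences ran from -0.20 (MCM7) to 0.21 (MCM4), both subunits of the MCM helicase, with a median of 0 for the members and 0 for all genes. Of the 40, 38 were within 1.1-fold of MP2-mock, against 82.5% of all genes. In a whole population, fewer cycling cells and less transcript per cycling cell cannot be told apart.

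On collagenI the members again stayed within 2-fold of MP2-mock, where 0.262% of 12608 genes were higher and 0.389% lower. Of the 40 members, 26 were below MP2-mock in MP2-α2/CI cells, 9 above and 5 identical, with a median of -0.05. Over all genes 29.6% were below and 34.0% above, with a median of 0. The lowest were E2F1 (-0.52, 1.43-fold), MCM7 (-0.38), CCNA2 (-0.30), AURKB (-0.27) and PLK1 (-0.27), and the highest was KIF11 (0.23), a motor that separates the spindle poles. Against MP2-α2/TC, which shares the MP2-α2/CI array with that comparison, 28 members were lower, 4 higher and 8 identical, with a median of -0.04. None of the 40 was at least 2-fold apart, where 0.0395% of 12647 genes were higher and 0.150% lower, and 24.6% of all genes were below 0 and 31.5% above. Without probe sets of the _x_at and _s_at kind, which can read several transcripts, 16 of 32 members were below MP2-mock and 11 above, with a median of -0.0024. Of all genes 25% were then below MP2-mock and 35% above. Against MP2-α2/TC, 17 members were below and 8 above, beside 20.8% and 32% of all genes. After quantile normalization over the 5 arrays, 30 members were below MP2-mock and 9 above, beside 53.6% and 45.9% of all genes. Against MP2-α2/TC, 32 were below and 7 above, beside 63.2% and 36% of all genes. The medians were then -0.039 and -0.032 for the members and -0.0042 and -0.0041 for all genes. These steps are small and have no replicate check.

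Identical values were frequent in the deposited table and limit how a difference of 0 can be read. Of the 81 member probe sets that cleared the floor on every array, 24 (29.6%) had the same value within 1e-06 in MP2-α2/TC and MP2-mock, and 14 (17.3%) in MP2-α2/CI and MP2-mock. Between MP2-α2Δ and MP2-α9α2 there were 11 (13.6%). Over all 27320 such probe sets the shares were 47.5%, 42.3% and 24.5%. None was identical in any of the 6 pairs made across the sets. For 5 members, CDT1, PCNA, CCNB2, BUB1 and KIF20A, all 3 arrays of the first set gave 1 value, and the part of this in the small first-set differences was not tested.

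Among the licensing and helicase genes, MCM7 read 12.80, 12.60, 12.42, 13.63 and 13.80 (here and below in the order MP2-mock, then MP2-α2/TC, then MP2-α2/CI, then MP2-α2Δ and last MP2-α9α2). MCM4 read 11.58, 11.79, 11.78, 12.27 and 12.32. MCM7 was thus below MP2-mock on both full-length α2 arrays and MCM4 above it, but on the MP2-α2/CI array 3 other MCM4 probe sets were below MP2-mock (-0.11, -0.27 and -0.12). CDC6, which loads the helicase, read 10.36, 10.41, 10.34, 12.21 and 12.21, and CDT1, its partner in loading, read 8.17 on each array of the first set, then 10.34 and 10.45. The other CDT1 probe set read 9.21, 9.20, 9.01, 9.21 and 8.58, so that a higher level in the second set held for 1 of its 2 probe sets. GINS2 read 11.37, 11.37, 11.32, 12.30 and 10.71, with MP2-α2Δ highest and MP2-α9α2 lowest. MCM2 read 13.27, 13.26, 13.21, 12.49 and 13.15, and its low value was that of MP2-α2Δ cells.

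Among the fork and nucleotide genes, PCNA, the sliding clamp, read 12.48 on each array of the first set, then 14.24 and 13.50. TYMS, which makes thymidylate, read 13.88, 13.91, 13.88, 14.30 and 13.54. For both the higher of the 2 mutant constructs was MP2-α2Δ, but another TYMS probe set gave the opposite order (-0.46). RRM1, the large subunit of ribonucleotide reductase, read 12.39, 12.41, 12.61, 13.61 and 14.09, and its small subunit RRM2 read 13.87, 13.83, 13.75, 14.39 and 13.90. RRM1 was higher in MP2-α9α2 than MP2-α2Δ cells, and the RRM2 probe sets differed in order, the other reading 14.52 in MP2-α2Δ and 14.68 in MP2-α9α2.

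Among the G1/S regulators, E2F1 read 8.02, 7.95, 7.50, 7.15 and 6.95. Its second probe set read 7.77, 7.62, 7.20, 5.47 and 5.47. By both, MP2-α2/CI was the lowest array of the first set. E2F2, a related activator, read 8.86, 8.74, 8.72, 8.42 and 8.97. Of the E cyclins, which activate CDK2, CCNE1 read 9.89, 9.85, 9.74, 10.28 and 9.56, and CCNE2 read 7.99, 7.96, 8.04, 10.16 and 9.70. CCNE2 separated the sets and CCNE1 did not.

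Among the G2/M regulators, CCNA2, the cyclin of S phase and G2, read 10.98, 10.87, 10.68, 12.08 and 11.90, and CCNB2, a mitotic cyclin, read 11.96 on each array of the first set, then 13.19 and 12.53. FOXM1, the transcription factor of the G2/M program, read 11.58, 11.50, 11.37, 10.55 and 10.74. PLK1, a mitotic kinase, read 11.23, 11.22, 10.96, 10.21 and 9.86. As deposited, the cyclins were higher in the second set and FOXM1 and PLK1 lower. After centring each array on its median, CCNB2 in MP2-α9α2 cells was below MP2-mock (-0.23).

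Among the chromosome genes, CENPA read 11.58, 11.52, 11.33, 10.13 and 8.98. MKI67, the Ki-67 antigen that coats mitotic chromosomes, read 10.52, 10.44, 10.36, 10.61 and 10.80. The spread of MKI67 was the smaller, and CENPA was lowest in MP2-α9α2 cells. TOP2A, which untangles replicated DNA, read 12.15, 12.21, 12.21, 13.43 and 13.47.

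Among the spindle and checkpoint genes, AURKB read 10.43, 10.37, 10.16, 11.81 and 10.26, and CDC20 read 13.29, 13.25, 13.10, 13.76 and 12.66. Both were highest in MP2-α2Δ cells. BUB1B, a checkpoint protein, read 10.47, 10.49, 10.49, 12.60 and 12.76. TTK, the checkpoint kinase upstream of it, read 9.74, 9.86, 9.93, 10.93 and 11.32, and KIF11 read 9.64, 9.69, 9.86, 11.03 and 11.61. These last were higher in MP2-α9α2 than in MP2-α2Δ cells.

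None of the members not yet given reached 2-fold inside a set by its summary probe set. A second MCM6 probe set did so between the mutant constructs, at 7.44 in MP2-α2Δ and 8.82 in MP2-α9α2 (-1.38). Of the helicase subunits, MCM3 read 11.09, 11.00, 10.96, 12.24 and 12.01, MCM5 read 11.25, 11.21, 11.20, 11.61 and 11.97, and MCM6 read 12.26, 12.35, 12.32, 13.37 and 13.70. CDK2, the kinase of the E and A cyclins, read 10.16, 10.20, 10.08, 11.64 and 11.43, and CDC25A, a phosphatase that activates it, read 9.14, 9.15, 9.05, 9.09 and 9.04. CDC25A was nearly level over the 5 arrays by this probe set, while another was above MP2-mock by 0.77 on the MP2-α2/TC array. CDK2, MCM3 and MCM6 were higher in the second set, and the other MCM5 probe set was lower there (-0.15 and -0.12).

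CCNB1, the main mitotic cyclin, read 13.11, 13.13, 13.12, 13.93 and 13.40, and its kinase CDK1 read 11.53, 11.50, 11.49, 12.41 and 11.92. CDC25C, the phosphatase that activates this pair, read 9.82, 9.80, 9.80, 10.24 and 10.40. The cyclin and the kinase were highest in MP2-α2Δ cells and the phosphatase in MP2-α9α2 cells. CENPE, a kinetochore motor, read 10.67, 10.67, 10.66, 10.91 and 11.11, and CENPF, another kinetochore protein, read 11.46, 11.46, 11.44, 11.75 and 11.97. Both were highest in MP2-α9α2 cells.

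AURKA read 12.03, 12.03, 11.97, 13.29 and 13.29, and BIRC5 read 12.50, 12.47, 12.35, 12.50 and 11.92. BUB1, a checkpoint kinase, read 10.47 on each array of the first set, then 11.54 and 11.74, and KIF20A, a motor of cytokinesis, read 11.55 on each, then 12.73 and 12.80. By these probe sets BIRC5 was not higher in the second set, whereas another of its probe sets was (2.42 and 2.07), and other probe sets of AURKA (-0.22 on each array) and BUB1 (-0.62 on each) were lower there.

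The contrast of the 2 mutant constructs, made within the second set, was the only one between arrays with a common minimum in which any member reached 2-fold. In MP2-α2Δ over MP2-α9α2 cells 4 of 40 were at least 2-fold higher (10.0%) and none lower, where 10.1% of 12924 genes were higher and 4.97% lower. The share of higher members is that of all genes. GINS2 was higher by 1.58 (3.00-fold), AURKB by 1.55 (2.94-fold), CENPA by 1.16 (2.23-fold) and CDC20 by 1.10 (2.15-fold). The next were TYMS (0.76), PCNA (0.75), CCNE1 (0.72) and CCNB2 (0.66), and the lowest were MCM2 (-0.65), KIF11 (-0.58), E2F2 (-0.54) and RRM1 (-0.48). In all, 19 members were above 0, 19 below and 2 identical, with a median of 0 for members and 0 for all genes. Of all genes 37.4% were above 0, 39.3% below and 23.3% identical.

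By role, the members of this contrast did not move as 1 block, but each role group holds only 4 to 9 genes. Whether the groups differ from each other or from all genes was not tested. Of 7 G2/M regulators 5 were above 0 (median 0.34), as were 5 of 6 G1/S regulators (median 0.21) and 3 of 4 fork and nucleotide genes (median 0.62). Of 9 licensing and helicase genes 6 were below 0 (median -0.11), as were 4 of 5 chromosome genes (median -0.19) and 5 of 9 spindle and checkpoint genes (median -0.07). The values for GINS2, CENPA and CDC20 came from probe sets of the _x_at and _s_at kind, so that AURKB alone remained without them. The other two probe sets of GINS2 differed by 0 (3.30 on each array) and 0.15 (5.64 over 5.50), and the second probe set of AURKB by 0.36 (2.89 over 2.54). All 4 probe sets of BIRC5, the survivin subunit of the AURKB complex, were higher in MP2-α2Δ cells, by 0.35 to 0.70, and none reached 2-fold.

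**Figure D3:**
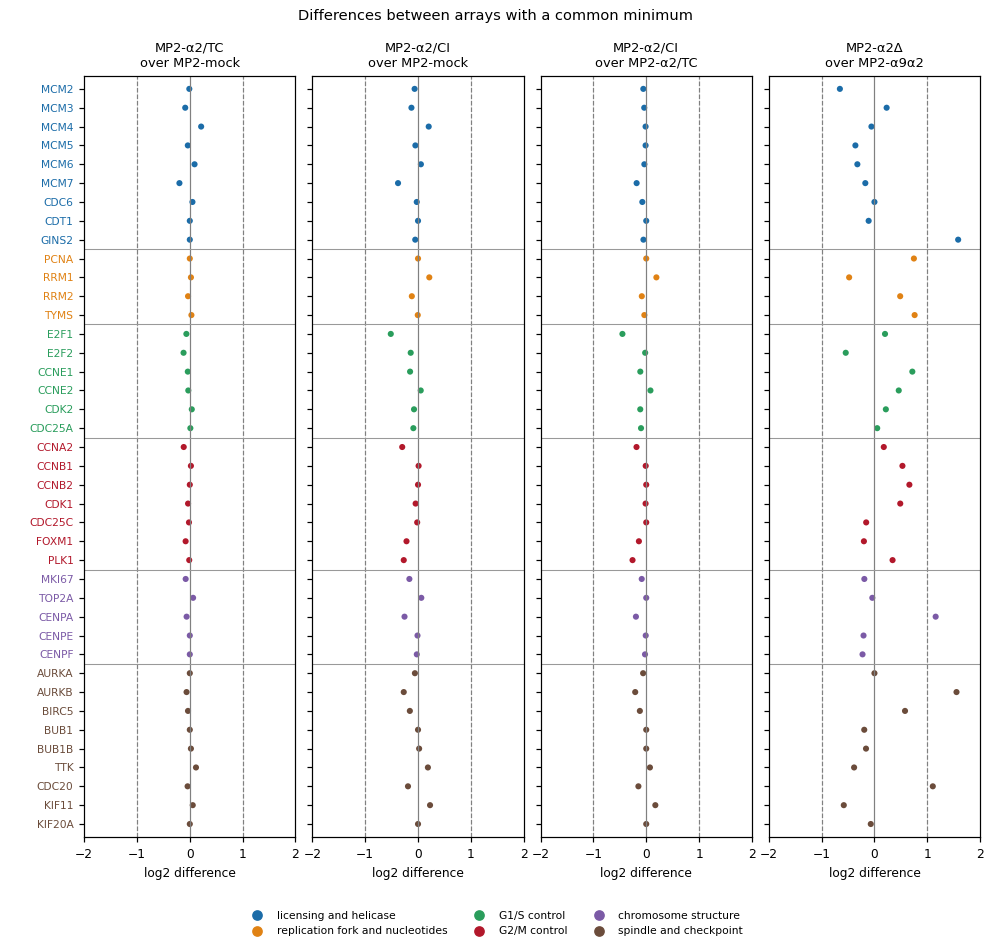
Log2 difference (x axis) of each member (y axis, points coloured by role group) in the 4 comparisons between arrays with a common minimum, 1 point per gene, with dashed lines at 2-fold. Points of the first 3 panels lie between -0.52 and 0.23, and 4 points of the MP2-α2Δ over MP2-α9α2 panel lie beyond 2-fold.

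Probe sets of the same gene were used to see how far a difference depends on the probes. In 26 members, several probe sets (67 in all) cleared the floor on every array, and the gap between the highest and lowest log2 difference had a median of 0.07 for MP2-α2/TC over MP2-mock, 0.15 for MP2-α2/CI over MP2-mock and 0.38 for MP2-α2Δ over MP2-α9α2. Between the sets it was 1.21 for MP2-α2Δ and 1.41 for MP2-α9α2 over MP2-mock. In both of these comparisons 19 of the 26 genes had a gap of at least 1, against none for the α2 arrays and 4 between the mutant constructs. AURKA, a centrosomal kinase, is an example, as its 3 probe sets gave 2.98, 1.26 and -0.22 for MP2-α2Δ over MP2-mock. In opposite directions by at least 2-fold were GINS2 (2.62 and -1.70) and AURKB (1.38 and -1.64) for MP2-α2Δ, and GINS2 (2.47 and -1.70) for MP2-α9α2. A gap is a range within a gene. It limits the reading of single genes between the sets and does not measure the error of a median over the members.

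**Figure D4:**
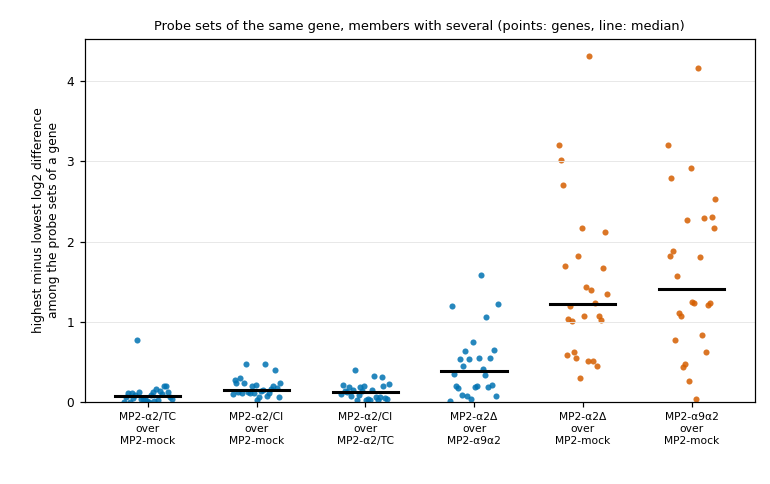
Gap between the highest and lowest log2 difference among probe sets of the same gene (y axis, log2 units) in 6 comparisons (x axis), 1 point per gene for 26 members, with a line at the median. The medians lie at 0.07 to 0.38 within the sets (blue) and at 1.21 and 1.41 between them (orange).

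Against MP2-mock, across the sets, 32 of 40 members were above 0 as deposited with α2Δ and 28 with the chimera. Of all genes 64.7% and 61.4% were above 0. In MP2-α2Δ cells 18 of 40 were at least 2-fold higher (45.0%) and 3 lower (7.5%), where 30.2% of 13421 genes were higher and 6.91% lower. In MP2-α9α2 cells 14 were higher (35.0%) and 3 lower (7.5%), where 31.7% of 13407 genes were higher and 11.0% lower. The medians were 0.85 and 0.58 for the members and 0.37 and 0.33 for all genes. The values for all genes depended on the floor, whereas those for the members did not. With the floor at 4 the medians of all genes were 0.61 and 0.61, and 72.3% and 68.4% were above 0. Of all genes 35.8% and 37.8% were then higher, and 7.21% and 12.4% lower. The split of higher and lower members depended on the scaling. After quantile normalization over the 5 arrays 5 members were higher and 6 lower in MP2-α2Δ cells, and 5 higher and 7 lower in MP2-α9α2 cells, with medians of 0.41 and 0.037, where 14.2% and 17.5% of all genes were higher and 16.6% and 20.1% lower. After centring each array on its median the counts were 4 and 6, and 4 and 9, with medians of 0.011 and -0.23, while the medians of all genes moved to -0.47 and -0.48, and 11.4% and 14.9% of all genes were higher and 23.3% and 25.8% lower. The 2 comparisons share MP2-mock.

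The members furthest above MP2-mock as deposited were also above it after quantile normalization. BUB1B was above MP2-mock as deposited by 2.13 (MP2-α2Δ) and 2.29 (MP2-α9α2), and by 1.59 and 1.78 after quantile normalization. CDC6 was above it by 1.84 and 1.84, and by 1.30 and 1.31 after normalization. CDT1 was above it by 2.17 and 2.28 (1.48 and 1.60), but its second probe set gave -0.01 and -0.64. CCNE2 was above it by 2.17 and 1.71 (1.47 and 0.97). These include factors of origin licensing, S phase entry and the spindle checkpoint.

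The members below MP2-mock included regulators of mitosis. CENPA differed from it by -1.45 (MP2-α2Δ) and -2.61 (MP2-α9α2) as deposited, and by -2.04 and -3.28 after quantile normalization. PLK1 differed by -1.02 and -1.37 (-1.62 and -1.99 after normalization), FOXM1 by -1.04 and -0.84 (-1.62 and -1.41) and E2F1 by -0.86 and -1.06 (-1.71 and -1.88). CENPA, PLK1 and FOXM1 have 1 probe set each, and those of CENPA and FOXM1 are of the _x_at kind. Both E2F1 probe sets were below MP2-mock, the second with a difference of -2.30 in each population.

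**Figure D5:**
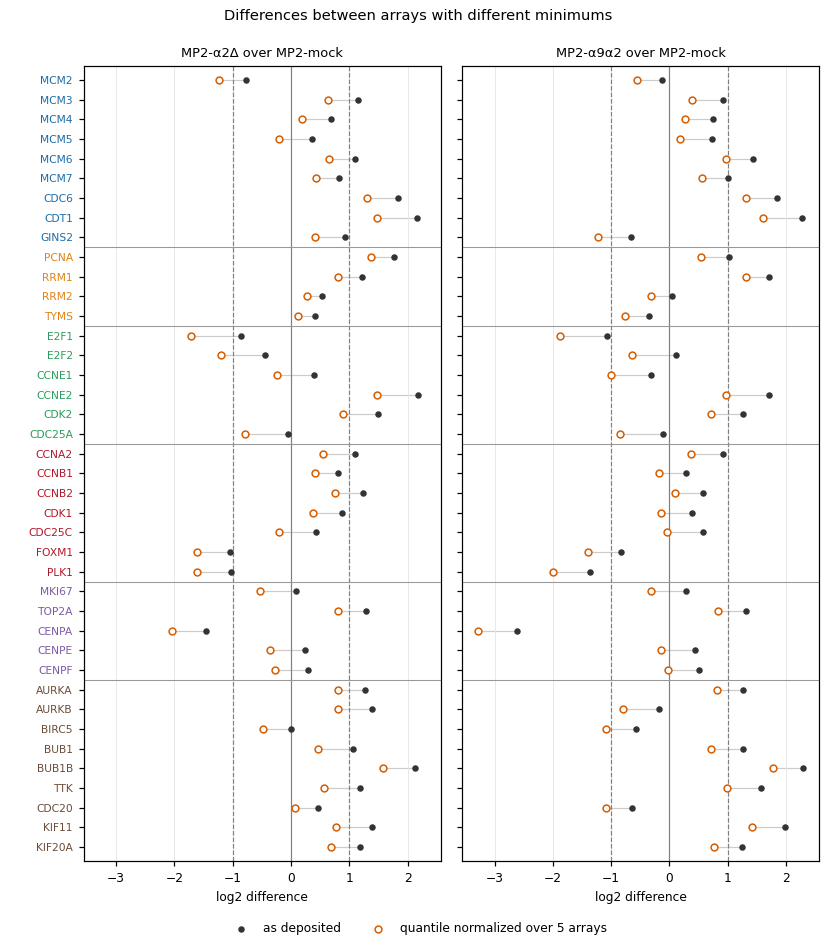
Log2 difference of MP2-α2Δ (left) and MP2-α9α2 (right) from MP2-mock (x axis) for each member (y axis), as deposited (filled) and after quantile normalization over the 5 arrays (open), with dashed lines at 2-fold. Open symbols lie below the filled ones, and 18 and 14 members at least 2-fold higher as deposited become 5 and 5.

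Other genes of replication and mitosis were also counted within the sets. Of 47 further replication genes and 58 further mitosis genes, none was 2-fold apart between any pair of first-set arrays. The nearest was GINS4, a helicase subunit that pairs with GINS2 in the same complex, at 12.09, 13.05 and 12.89 on the first-set arrays. In MP2-α2Δ over MP2-α9α2 cells 7 of the 47 replication genes were higher and none lower (median 0.037), and 8 of the 58 mitosis genes were higher and none lower (median 0.0073), beside 10.1% and 4.97% of all genes. On the second-set arrays GINS4 read 11.57 with α2Δ and 8.45 with the chimera, a difference of 3.13. GMNN, the inhibitor of CDT1, read 12.03 and 9.96 (2.07), CENPM, a kinetochore protein, 9.77 and 7.96 (1.80), and SPC25, another, 10.75 and 9.10 (1.65).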

How the data were processed

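Expression was measured on 1 Affymetrix array for each of 5 MIAPaCa2 populations. The authors deposited 1 normalized log2 value per probe set and array. No header states the log base, which was taken from the spread of the values. GCRMA and MAS5 are listed by the submitters' processing notes with neither role nor version, and the 2 sets of arrays were told apart by their minimum alone. Of 54675 probe sets, 62 controls were left out, and 41091 named 1 gene through the platform annotation, with symbols brought up to date through a RefSeq table of GRCh38.p14. Values under the floor were raised to it, and genes above it on either array of a pair were compared. Genes at least 2-fold apart were counted for 6 pairs of arrays, and no test was possible with 1 array per group, so that the number of arrays limits the precision. The code was tested on simulated data with known changes. Values on every array are given for the member with the largest difference in each role group and comparison, members 2-fold apart within a set, and members whose probe sets disagree in direction by 2-fold. Of the other lists, the 3 genes with the largest difference in each within-set comparison may be named. The values of the remaining members were added after they were seen. The 40 members, the role groups, the other gene lists and the motifs were chosen with earlier results of these data known. Promoter motifs were searched on both strands. Alternatives were another floor or none, centring, quantile normalization, other probe sets, and 1.5-fold or 3-fold. Python 3.11.15, numpy 2.4.6 and pandas 2.3.3 were used.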

Additional observations from a re-analysis of the deposited data

How the results depend on the processing

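Comparisons between arrays of the first set gave no member past the threshold under any alternative run, 1.5-fold and 3-fold included. With none past 2-fold, the 3-fold counts there could only be 0. For MP2-α2Δ over MP2-α9α2, 4 members were 2-fold apart, against 9 at 1.5-fold (8 higher, 1 lower) and 0 at 3-fold. Of all genes 18.3% were higher and 14.2% lower at 1.5-fold, and 3.05% and 1.59% at 3-fold. The count was 2 with the mean over all probe sets of a gene, beside 6.72% of all genes higher and 2.67% lower. It was 1 without _x_at and _s_at probe sets, beside 9.1% and 5.57%, where 8 members had no other probe set and 32 were measured. GINS2 differed by 0.58 with the mean and by 0 without these probe sets, and AURKB by 0.95 with the mean. Across the sets, the counts for MP2-α2Δ over MP2-mock (21 as deposited) were 5 at 3-fold, 10 after centring and 11 after quantile normalization, and for MP2-α9α2 (17 as deposited) 7 at 3-fold. At 3-fold 15.7% of all genes were higher and 2.85% lower in MP2-α2Δ cells, and 18.7% and 5.62% in MP2-α9α2 cells. The median for MP2-α2Δ (0.85) was 0.011 after centring, 0.41 after quantile normalization, 0.64 with the mean over probe sets and 1.13 without _x_at and _s_at probe sets. For MP2-α9α2 (0.58) it was -0.23, 0.037, 0.75 and 0.97. The cause of these shifts was not tested. Another 68 counts and medians under these alternatives stayed within 1.5 times the count or 0.1 of the median as reported. Some of these could not move, so the total does not measure stability. Every member was above each floor used, so another floor or none left the member values unchanged. For MP2-α9α2 over MP2-mock the count stayed within this limit, although its split of 14 higher and 3 lower changed. It became 4 and 9 after centring and 5 and 7 after quantile normalization. With the motif search restricted to upstream bases, 11 members held an E2F site, 11 a CHR and 24 a CCAAT box. The shares over the promoter table were then 2.79%, 14.6% and 33%. With any listed start 14, 14 and 25 members held them, against shares of 3.99%, 19.5% and 39.7%. Both settings were chosen after the data were seen. No paired analysis was possible because each population had 1 array.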

Other observations

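Of 24 measured G1 cyclins, kinases and inhibitors, 1 was at least 2-fold higher and 1 lower on the MP2-α2/TC array than on the MP2-mock array. Of all genes 0.292% were higher and 0.378% lower. On the MP2-α2/CI array 1 was lower than on the MP2-mock array, beside 0.389% of all genes. Against MP2-α2/TC, 2 were lower on that array (CDK6 and BTG1), beside 0.150% of all genes. Between the mutant constructs, 3 were higher and 3 lower with α2Δ, beside 10.1% and 4.97% of all genes. CDK6, a G1 kinase, read 6.72, 4.06, 2.85, 12.20 and 9.60 in the order MP2-mock, then MP2-α2/TC, then MP2-α2/CI, then MP2-α2Δ and last MP2-α9α2, and was lowest on the full-length α2 arrays. BTG1, an antiproliferative gene, read 8.15, 9.37, 8.31, 7.74 and 9.35. CDKN1A, the p21 inhibitor of cyclin-dependent kinases, read 7.44, 8.14, 7.95, 7.44 and 6.28. E2F7, a repressor of E2F targets, read 7.24, 7.59, 7.65, 5.95 and 8.52, with a difference of -2.56 between the mutant constructs. CCND1, a D-type cyclin that partners CDK6, read 8.79, 8.87, 8.88, 8.99 and 10.61, and was highest in MP2-α9α2 cells.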
